A study of Mus musculus with 6 samples.

Results

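The eukaryotic translation initiation factors are the proteins that bring the initiator methionyl-tRNA, the messenger RNA and the ribosomal subunits together at a start codon. The genes described were all protein-coding genes of GENCODE M21 whose symbol begins with Eif followed by a digit from 1 to 6, so the set also takes in the kinases and binding proteins that bear the factors' names. The rule found 55 genes among the 55487 of the table, and 52 of them reached 0.5 CPM, the counts of a gene scaled to the library total, in at least 3 of the 6 libraries. The rule used levels over all libraries and no difference between groups. The 3 others are Eif4e1b, listed at 0 in all libraries, Eif4ebp3, with 8 counts in control replicates 1 and 2 and none elsewhere, and Eif5a2, with 8 counts in knockout replicate 1 alone.

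The libraries came from RAW264.7, an established mouse line of macrophages that turns into osteoclast-like cells under the cytokine RANKL. All 6 samples carry RANKL and M-CSF treatment in their labels, so no group without the cytokines enters here. Of these, 3 are control libraries of wild-type genotype, which the series' design text calls untreated, and 3 are libraries labelled RhoA knockout, titled SMART-Cas9. No group that received Cas9 without a RhoA guide is among the samples, and whether the edited cells were 1 clone is not given in the sources used here. The labels do not say that the libraries came from separate cultures, so the p-values measure the spread between these libraries, which may be technical.

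Initiation in the cytosol runs in ordered steps. The eIF4F complex, made of the cap-binding protein eIF4E, the scaffold eIF4G and the helicase eIF4A, prepares the messenger RNA, and the 4E-BP proteins hold eIF4E back when mTORC1 is inactive. The heterotrimer eIF2 carries the initiator tRNA to the small subunit with GTP, eIF2B reloads eIF2 with GTP, and kinases that phosphorylate the eIF2 alpha subunit block that reloading. eIF3 is the large scaffold on the small subunit, and eIF1, eIF1A, eIF5 and eIF5B control the choice of the start codon and subunit joining.

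The member with the highest fold change codes for eIF4A1, and its paralogs Eif4a2 and Eif4a3 moved in different directions, so a matching coding stretch of the 3 genes is shown first, from the GENCODE M21 transcripts. It surrounds the codons of the DEAD box, the motif that names this helicase family, and capitals mark the bases that differ from Eif4a1.
Eif4a1: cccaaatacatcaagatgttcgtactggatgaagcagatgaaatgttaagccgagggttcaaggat
Eif4a2: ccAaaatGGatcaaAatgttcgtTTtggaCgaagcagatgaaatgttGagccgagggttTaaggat
Eif4a3: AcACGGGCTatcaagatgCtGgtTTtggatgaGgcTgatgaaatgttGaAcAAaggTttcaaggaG
Within these 66 bases Eif4a2 differs from Eif4a1 at 9 and Eif4a3 at 20. Over the whole coding sequence, Eif4a2 is identical to Eif4a1 at 77.6% of positions and Eif4a3 at 65.2%.

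The stretch just upstream of each gene's first annotated base is shown because the 3 paralogs moved apart. These are 100 bases from the RefSeq promoter table (GRCm38.p6), written along the gene's strand, and capitals mark the CCAAT box and the GC box GGGCGG on either strand.
Eif4a1, chr11:69672424-69672523, minus strand: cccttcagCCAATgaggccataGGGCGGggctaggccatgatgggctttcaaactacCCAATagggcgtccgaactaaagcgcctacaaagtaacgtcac
Eif4a2, chr16:23107344-23107443, plus strand: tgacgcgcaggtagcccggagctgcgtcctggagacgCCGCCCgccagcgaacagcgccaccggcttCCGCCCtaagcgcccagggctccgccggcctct
Eif4a3, chr11:119300090-119300189, minus strand: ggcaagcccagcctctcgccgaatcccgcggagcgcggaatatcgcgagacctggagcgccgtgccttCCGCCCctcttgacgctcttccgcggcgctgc
Eif4a1 holds 3 such matches in this window, Eif4a2 holds 2 and Eif4a3 holds 1.

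Library totals ran from 60198645 to 81830819 counts, and a count of 3 in a library equals 0.0367 to 0.0498 CPM. Replicate 3 of each group stood apart from the others of its group, where the chi-square of the gene counts, per degree of freedom, was at least 80.8, against 20.7 and 26.3 between replicates 1 and 2 of the control and knockout groups. Rhoa, the gene named in the labels, was higher in the libraries labelled RhoA knockout, with 21.4, 25.8 and 24.4 CPM in the controls and 34.2, 29.9 and 31.5 CPM in the others (log2 fold change 0.41 ± 0.12 SE, edgeR adjusted p = 0.0136). The Rhoa call was lost without control replicate 1 (adjusted p 0.0645) and without knockout replicate 1 (0.0741), within 0.000334 to 0.0741 over the alternatives. The Rhoa transcript level was thus not lower under the knockout label. The edited part of the gene is not given, so the label cannot be checked from the counts. Every direction below is for the libraries as labelled. All 9 macrophage markers exceeded 3 counts, with a summed level of 18200 to 20100 CPM in the controls and 81100 to 114000 CPM in the knockout-labelled libraries. Lyz2 made up most of these sums, with means of 16830 and 88260 CPM; 3 of the 9 markers were called higher (Lyz2, Cd68 and Csf1r) and 5 lower (Itgam, Fcgr1, Cd14, Adgre1 and Ptprc), with Itgam at -2.01 and Fcgr1 at -1.91 on the log2 scale. Of 9 osteoclast markers 7 did, at 23.9 to 27.7 and 27.2 to 27.3 CPM in sum, with Calcr and Oscar at 0. Behind these sums Ctsk (1.10) and Atp6v0d2 (0.62) were called higher and Mmp9 (-2.06), Acp5 (-1.43) and Dcstamp (-0.77) lower on the log2 scale. Fibroblast, epithelial and lymphocyte markers summed to at most 1.44 CPM. The part of these marker levels in the results below was not tested, and in bulk libraries a change in the number of cells of a type and a change in RNA per cell cannot be told apart.

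Of the 52 initiation factor genes, 19 rose and 11 fell in the knockout-labelled libraries, and 22 did not pass the test. A call is a Benjamini-Hochberg adjusted p under 0.05 in edgeR's quasi-likelihood test over 12930 genes. The called share was 57.7% of members, against 43.2% of all genes tested. In the upward direction it was 36.5% against 21.0%, and in the downward direction 21.2% against 22.3%. The members are abundant, with a median average log2 CPM of 4.92 against 1.76 for all genes. Among genes at an average log2 CPM of 3 or more, 28 of 42 members were called (66.7%), against 69.3% of all such genes. By direction these were 17 upward (42.7% of all such genes) and 11 downward (26.6% of all such genes), so at a like level the share of members called is near the background. The median log2 fold change was 0.10 over the members and -0.03 over all genes. A change of at least 2-fold was called upward for 10 members (11.2% of all genes) and downward for 4 (14.7% of all genes).

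**Figure D1:**
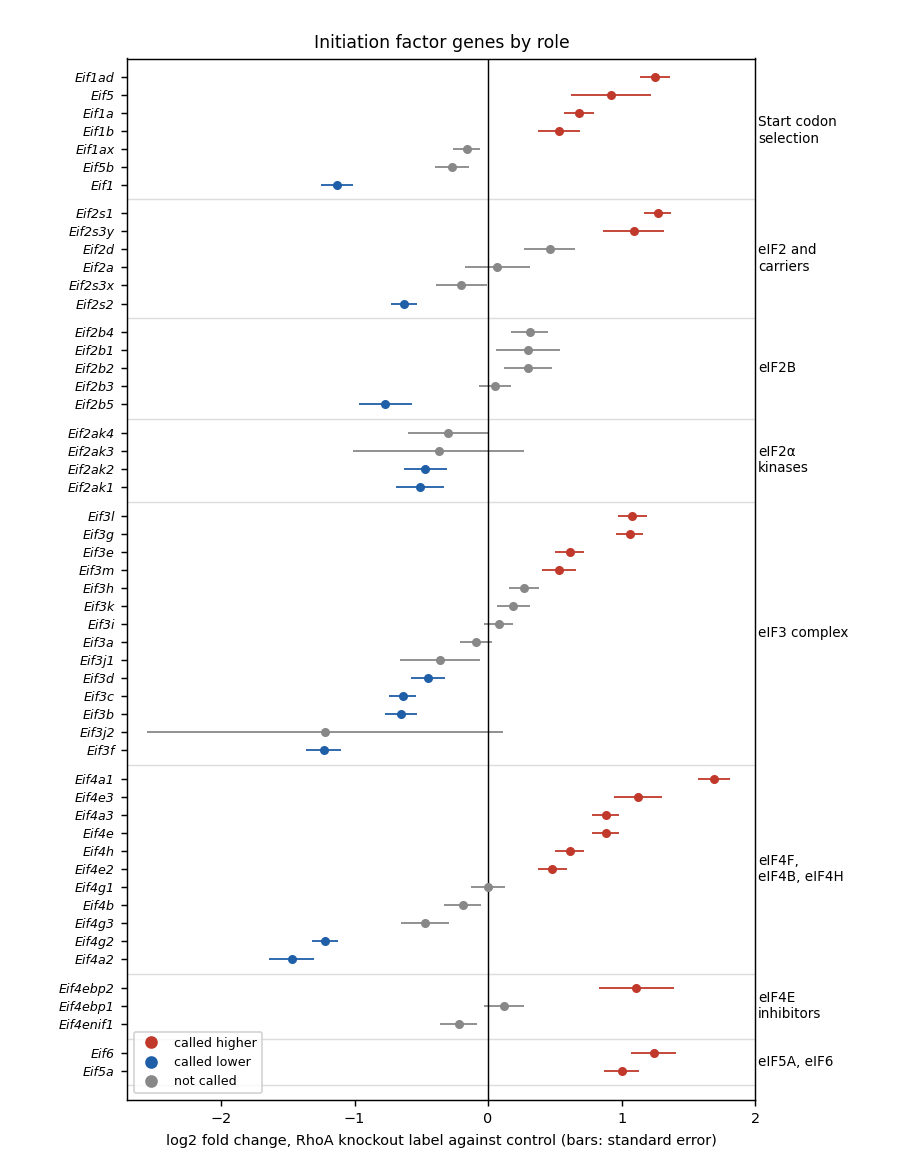
Log2 fold change of each of the 52 genes (knockout label against control, error bars are the SE from edgeR), grouped by role, with colour for the call. Each role with more than 5 genes holds members on both sides of 0, and the values run from -1.47 for Eif4a2 to 1.69 for Eif4a1.

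Summed over the 52 members, the level was 4316 CPM in the controls and 7276 CPM in the knockout-labelled libraries. Eif5a and Eif4a1 made up 75.5% of that difference. Without them the sums were 2503 and 3229 CPM. As a share of the raw counts of each library, the members held 0.416%, 0.418% and 0.387% in the controls and 0.759%, 0.801% and 0.749% in the others. The 10 most abundant genes of each library took 62.0% to 63.2% of the counts in the controls and 44.1% to 47.8% in the others. CPM elsewhere in the text are scaled with TMM factors.

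The cap-binding and helicase group, eIF4F with its helpers eIF4B and eIF4H and their relatives by name, held 11 reported genes. Of these, 6 rose and 2 fell. The relatives counted are Eif4a3, Eif4e2 and Eif4e3, which rose, and Eif4g2, which fell. The called share of 72.7% compares with 43.2% of all genes tested and 69.3% of those at an average log2 CPM of 3 or more. Part of this group lies below that level. Eif4a1 (chromosome 11, 69666936 to 69672423, minus strand), the main helicase of eIF4F, had 341, 369 and 322 CPM in the controls and 1041, 1059 and 1218 CPM in the knockout-labelled libraries. All 3 knockout-labelled libraries lay above all controls. The means were 344 ± 23.6 and 1106 ± 97.2 CPM (SD, n = 3 each), with a log2 fold change of 1.69 ± 0.12 SE and an edgeR adjusted p of 6.14e-07. The processed copy Eif4a-ps4 matches Eif4a1 at 99.92% over 1218 bp and held up to 18.5% of its count, so the split of reads between them is uncertain. With the counts of both summed, an alternative chosen after seeing the data, the log2 ratio of the means was 1.73.

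Eif4a2, a second eIF4A helicase on chromosome 16 (23107444 to 23114136, plus strand), fell, with 15.3, 18.3 and 17.6 CPM in the controls and 7.03, 6.54 and 4.84 CPM in the others. The means were 17.1 ± 1.57 and 6.14 ± 1.15 CPM (SD, n = 3), and the log2 fold change was -1.47 ± 0.17 SE (edgeR adjusted p = 2.68e-05). The groups did not overlap. The annotated gene of Eif4a2 overlaps Rfc4 on the opposite strand by 194 bp. Rfc4 counts went from 762, 698 and 380 to 3376, 3542 and 3487, opposite in direction to Eif4a2. Since the strand setting of the counting is not given, reads of the 2 genes in that stretch cannot be told apart. Eif4a3, the member of the family in the exon junction complex, rose from 54.9, 59.2 and 52.3 CPM to 99.4, 101.6 and 104.8 CPM (log2 fold change 0.88 ± 0.10 SE, edgeR adjusted p = 2.12e-05).

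Eif4e, the cap-binding subunit, had 133, 129 and 137 CPM in the controls and 239, 229 and 267 CPM in the others. It rose by 0.88 ± 0.10 SE on the log2 scale (edgeR adjusted p = 2.98e-05), and the groups did not overlap. Eif4g2, which codes for DAP5, a scaffold that resembles eIF4G but lacks the eIF4E-binding part, fell from 150.2, 140.5 and 147 CPM to 67.5, 63.7 and 57.4 CPM. Its log2 fold change was -1.22 ± 0.10 SE (edgeR adjusted p = 2.24e-06), and -0.75 after a correction for the trend of fold change with exon length. The canonical scaffold Eif4g1 stood at 24.2 ± 2.87 and 24.3 ± 2.05 CPM (SD, n = 3), with a log2 fold change of 0.00 ± 0.13 SE (edgeR adjusted p = 0.98). Under the length correction it had 0.32 and an adjusted p of 0.045, within a range of 0.045 to 0.999 over 15 alternatives.

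The other cap-binding proteins also rose, Eif4e2 by 0.48 ± 0.11 SE and Eif4e3 by 1.12 ± 0.18 SE on the log2 scale (edgeR adjusted p = 0.00504 and 0.00039). Eif4e3 shares exon sequence with the overlapping model Gm20696 and is uncertain. Eif4h, which stimulates eIF4A, rose by 0.61 ± 0.11 SE (edgeR adjusted p = 0.000778). Eif4b, with a like role, stood at -0.19 on the log2 scale and the scaffold Eif4g3 at -0.47, and neither passed the test (edgeR adjusted p = 0.314 and 0.0558).

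**Figure D2:**
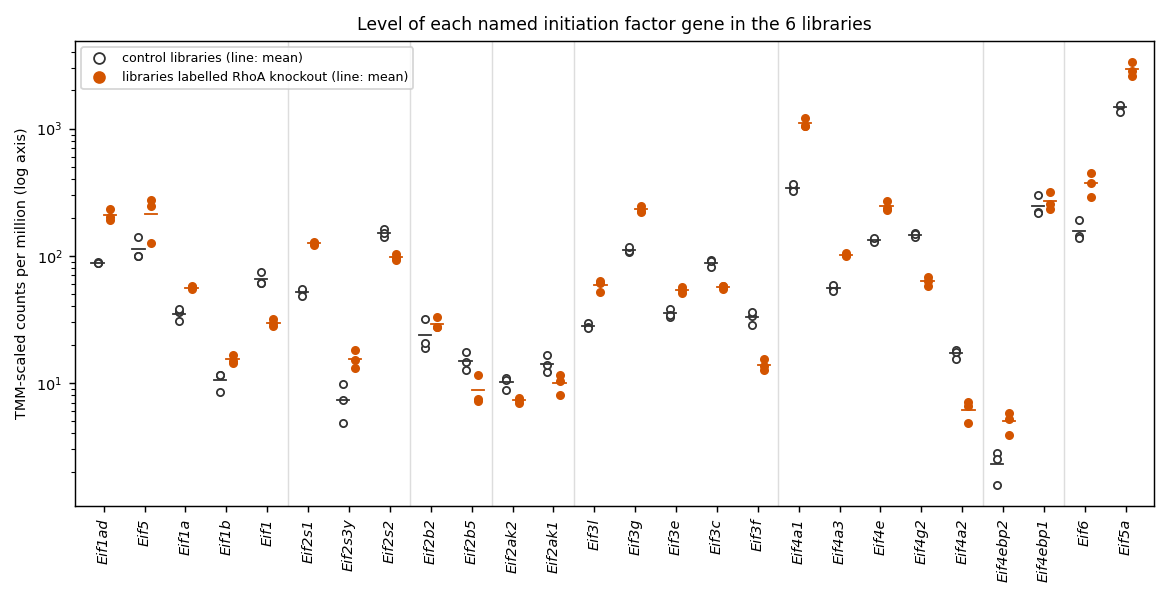
CPM of selected initiation factor genes in each of the 6 libraries (log axis, points are libraries, horizontal lines are group means). Eif4a1 lies between 322 and 369 CPM in the controls and between 1041 and 1218 CPM in the knockout-labelled libraries, while the Eif4ebp1 points of the groups overlap.

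Of the proteins that bind eIF4E and keep it from eIF4G, Eif4ebp1 was the most abundant per length, at 112.4 and 121.8 CPM per kb of exon. It had 219.9, 217 and 303 CPM in the controls and 232, 255 and 315 CPM in the others, and the groups overlapped. Its log2 fold change was 0.12 ± 0.15 SE (edgeR adjusted p = 0.585), and the sign turned to -0.15 under the length correction. Eif4ebp2 rose from 2.79, 2.51 and 1.58 CPM to 5.19, 5.82 and 3.91 CPM (log2 fold change 1.11 ± 0.28 SE, edgeR adjusted p = 0.00641). Eif4enif1, which codes for the eIF4E transporter, had a log2 fold change of -0.22 and was not called.

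Among the 6 carriers of the initiator tRNA, 2 rose and 1 fell. For comparison, 43.2% of all genes tested were called, and 69.3% of those at an average log2 CPM of 3 or more. Part of this group lies below that level. Eif2s1, which codes for eIF2 alpha, the subunit the stress kinases phosphorylate, had 52.9, 55.0 and 48.5 CPM in the controls and 128, 122 and 127 CPM in the others. The means were 52.1 ± 3.28 and 125 ± 3.36 CPM (SD, n = 3), with a log2 fold change of 1.27 ± 0.10 SE and an edgeR adjusted p of 1.32e-06. Eif2s2, the beta subunit, moved the other way, from 162, 141 and 152 CPM to 104, 96.0 and 93.4 CPM (log2 fold change -0.63 ± 0.10 SE, edgeR adjusted p = 0.000352). A copy of Eif2s2, Gm9892, held up to 14.7% of its count, so its value is uncertain.

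The gamma subunit has a gene on each sex chromosome. Eif2s3y, on Y, rose from 4.86, 9.79 and 7.36 CPM to 18.3, 15.2 and 13.2 CPM (log2 fold change 1.09 ± 0.23 SE, edgeR adjusted p = 0.00231). Eif2s3x, on X, had 7.41, 9.05 and 8.59 CPM in the controls and 8.57, 7.56 and 5.69 CPM in the others, which overlap (log2 fold change -0.20, edgeR adjusted p = 0.436). Eif2a and Eif2d, factors that can deliver tRNA without eIF2, had log2 fold changes of 0.07 and 0.46 and were not called.

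Of the 5 genes of the exchange factor eIF2B, 1 fell and 4 did not pass the test, where 43.2% of all genes tested were called. Eif2b5, the catalytic epsilon subunit, had 14.5, 12.6 and 17.5 CPM in the controls and 7.40, 11.6 and 7.21 CPM in the others (log2 fold change -0.77 ± 0.20 SE, edgeR adjusted p = 0.00897). Its nearest libraries, control replicate 2 and knockout replicate 2, lie close together. Without replicate 3 of both groups its log2 value was -0.51 and the edgeR adjusted p 0.114, the upper end of a range that starts at 0.00182 over 15 alternatives. Eif2b2, the most abundant of the 5 per length, had 18.8, 20.8 and 31.9 CPM in the controls and 27.3, 27.6 and 32.9 CPM in the others. Control replicate 3 lay within the range of the other group, and the gene was not called (log2 fold change 0.30, edgeR adjusted p = 0.212). Without control replicate 3 its log2 fold change was 0.57 with an edgeR adjusted p of 0.00586, and the adjusted p reached 1.0 over the alternatives. Eif2b1, Eif2b3 and Eif2b4 had log2 fold changes of 0.30, 0.05 and 0.31. The Eif2b4 groups did not overlap, but the gene was not called (edgeR adjusted p = 0.0842). It shares 204 bp with Snx17 on the opposite strand, so its value is uncertain. Snx17 counts went from 4383, 3075 and 2948 to 6844, 7044 and 7418.

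The 4 kinases of eIF2 alpha were low, and 2 of them fell by small amounts. For comparison, 43.2% of all genes tested were called in either direction and 22.3% were called lower. Whether the kinases differ from these shares was not tested. Eif2ak2, which codes for PKR, the kinase activated by double-stranded RNA, had 10.9, 10.6 and 8.82 CPM in the controls and 7.28, 6.94 and 7.59 CPM in the others (log2 fold change -0.47 ± 0.16 SE, edgeR adjusted p = 0.0291). Eif2ak1, the heme-regulated kinase HRI, had 16.7, 12.1 and 13.8 CPM against 11.6, 10.4 and 7.96 CPM (log2 fold change -0.51 ± 0.18 SE, edgeR adjusted p = 0.0373). It shares 488 bp with Aimp2 on the opposite strand, whose gene overlaps it by 1548 bp, so its value is uncertain. Aimp2 counts went from 1181, 900 and 1030 to 2724, 3320 and 3397, opposite in direction to Eif2ak1. The calls of both kinases were each lost in 7 of 15 alternatives, with adjusted p from 0.0177 to 0.233 for Eif2ak2 and from 0.0184 to 0.314 for Eif2ak1. The Eif2ak2 adjusted p was 0.101 without control replicate 1, 0.0691 without control replicate 2, 0.0623 without knockout replicate 1 and 0.0754 without knockout replicate 2. For Eif2ak1 it was 0.169 without control replicate 1, 0.0638 without control replicate 3, 0.0671 without knockout replicate 2 and 0.135 without knockout replicate 3. Eif2ak4, the amino acid sensor GCN2, and Eif2ak3, the endoplasmic reticulum sensor PERK, were not called, with log2 fold changes of -0.30 and -0.37. Eif2ak3 rests on 44, 26 and 40 counts in the controls and 51, 23 and 33 counts in the others. It also shares 222 bp with the overlapping model Gm43292 and is uncertain.

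The 14 genes of the eIF3 complex were split, with 4 higher, 4 lower and 6 not called. Eif3g, an RNA-binding subunit and the most abundant per length over both groups, had 107, 109 and 117 CPM in the controls and 221, 225 and 249 CPM in the others (log2 fold change 1.06 ± 0.10 SE, edgeR adjusted p = 5.97e-06). Eif3l rose from 29.5, 27.5 and 26.8 CPM to 63.6, 60.9 and 52.3 CPM (log2 fold change 1.08 ± 0.11 SE, edgeR adjusted p = 1.18e-05). Eif3e rose from 32.9, 38.2 and 34.5 CPM to 57.2, 53.4 and 51.0 CPM (log2 fold change 0.61 ± 0.11 SE, edgeR adjusted p = 0.000637). The groups did not overlap for these 3 subunits.

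In the other direction, Eif3f fell from 33.4, 28.5 and 36.3 CPM to 13.6, 12.7 and 15.5 CPM (log2 fold change -1.23 ± 0.13 SE, edgeR adjusted p = 1.6e-05). Eif3c fell from 93.1, 81.0 and 91.3 CPM to 54.8, 57.7 and 57.9 CPM (log2 fold change -0.64 ± 0.10 SE, edgeR adjusted p = 0.000297). Eif3b, which with the g and i subunits forms a module of the complex, fell by 0.65 on the log2 scale (edgeR adjusted p = 0.000968), and Eif3d, which can itself bind the cap, fell by 0.45 (edgeR adjusted p = 0.0117). Without replicate 3 of both groups Eif3d had -0.34 and an adjusted p of 0.057, within 0.00576 to 0.249 over the alternatives.

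The called share of the eIF3 genes was 57.1%, against 43.2% of all genes tested and 69.3% of those at an average log2 CPM of 3 or more. The eIF3 share also counts Eif3j1 and Eif3j2, which lie below that level. Of the 8 subunits of the structural core (a, c, e, f, h, k, l and m), 3 rose, 2 fell and 3 were not called. Eif3m rose by 0.53 on the log2 scale (edgeR adjusted p = 0.0069), a call lost under the length correction (0.32, adjusted p 0.0738, within 0.000764 to 0.0738 over the alternatives). Of the b, g and i module, 1 rose, 1 fell and 1 was not called. Eif3a, Eif3h, Eif3i and Eif3k had log2 fold changes of -0.09, 0.27, 0.08 and 0.19. The j subunit has 2 near-identical genes, Eif3j1 and Eif3j2, that match at 99.41% over 2379 bp. Eif3j2 had 352, 324 and 283 counts in the controls and 0, 263 and 264 counts in the others, a log2 fold change of -1.22 ± 1.33 SE, and -0.65 without knockout replicate 1. Eif3j1 had a log2 fold change of -0.36 and neither was called. With both summed, the counts were 520, 502 and 557 against 191, 503 and 465.

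Of the 7 genes grouped under start codon selection, 4 rose and 1 fell. The group counts Eif1ad, which rose, only for its domain like that of eIF1A. Its called share of 71.4% compares with 43.2% of all genes tested and 69.3% of those at an average log2 CPM of 3 or more. Eif1, the factor that keeps the scanning ribosome open, fell from 61.1, 60.8 and 74.5 CPM to 27.9, 29.7 and 31.8 CPM (log2 fold change -1.13 ± 0.12 SE, edgeR adjusted p = 1.05e-05). Its paralog Eif1b had 11.6, 8.49 and 11.6 CPM in the controls and 14.8, 14.4 and 16.6 CPM in the others (log2 fold change 0.53 ± 0.16 SE, edgeR adjusted p = 0.0165). The Eif1b call was lost without control replicate 2 (adjusted p 0.0766), without knockout replicate 3 (0.0568) and under the length correction (0.289), within 0.0069 to 0.289 over the alternatives. Emd matches Eif1 at 96.68% over 662 bp and held up to 14% of its count, so the value of Eif1 is uncertain.

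Eif1a, which acts beside eIF1, rose from 36.3, 38.3 and 30.7 CPM to 57.3, 56.6 and 54.7 CPM (log2 fold change 0.68 ± 0.11 SE, edgeR adjusted p = 0.000412), while the X-linked Eif1ax had a log2 fold change of -0.16 and was not called. Eif1ad, named for a domain like that of eIF1A, had 88.8, 87.2 and 87.0 CPM in the controls and 190.8, 202 and 233 CPM in the others (log2 fold change 1.25 ± 0.11 SE, edgeR adjusted p = 2.28e-06). It shares 428 bp with Banf1 on the opposite strand, whose counts were 10540, 7633 and 7279 against 13279, 15124 and 14775, and reads of the 2 genes in that stretch cannot be told apart. Eif5, which triggers GTP hydrolysis on eIF2, had 99.5, 98.8 and 142 CPM in the controls and 126, 245 and 273 CPM in the others. Knockout replicate 1 lay below control replicate 3, and the call is close to the threshold (log2 fold change 0.92 ± 0.30 SE, edgeR adjusted p = 0.0403). The Eif5 adjusted p was 0.0775 without control replicate 1, 0.113 without control replicate 2, 0.1 without knockout replicate 2 and 0.12 without knockout replicate 3, within 0.000386 to 0.147 over the alternatives. Eif5b, which joins the subunits, had a log2 fold change of -0.27 and was not called.

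Eif5a and Eif6 both rose. Eif5a codes for the hypusine-bearing factor now known for its role in elongation and termination, and was the most abundant member per length, at 617.9 CPM per kb of exon in the controls and 1237 in the others. It lies on chromosome 11 (69916714 to 69921958, minus strand), and its levels were 1514, 1539 and 1353 CPM against 2608, 2859 and 3356 CPM, with no overlap. The means were 1469 ± 101 and 2941 ± 381 CPM (SD, n = 3), so Eif5a rose by 1.00 ± 0.13 SE on the log2 scale (edgeR adjusted p = 7.2e-05). Eif6, which keeps the large subunit from joining too early, had 142, 138 and 192 CPM in the controls and 292, 373 and 447 CPM in the others (log2 fold change 1.24 ± 0.17 SE, edgeR adjusted p = 0.000105).

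**Figure D3:**
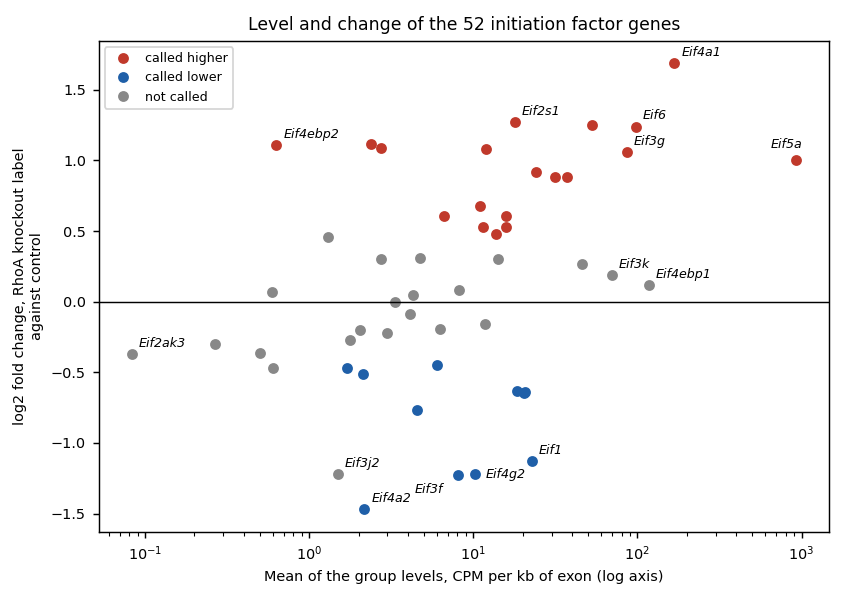
Log2 fold change of each of the 52 genes against its mean level in CPM per kb of exon (log axis), with colour for the call. Eif5a lies farthest to the right, and the 4 genes called at least 2-fold lower (Eif4a2, Eif3f, Eif4g2 and Eif1) lie well below it in level.

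Ratios of 2 members within a library do not depend on the scaling between libraries. The pairs were paralogs, except Eif4ebp1 over Eif4e, which sets an inhibitor against the protein it binds. Of 10 pairs planned, 9 could be computed, since Eif5a2 was at 0 in 5 of 6 libraries, and 8 of the 9 did not overlap between groups. Among all genes tested the groups did not overlap in level for 55.8%. That share is over single genes, and none was computed for ratios of gene pairs. With 3 libraries against 3, the exact two-sided permutation test cannot go below p = 0.1, so no pair can pass a threshold of 0.05. Each of the 8 reached p = 0.1 in this exact test (0.112 after Benjamini-Hochberg adjustment over the 9 pairs), and Eif4ebp2 over Eif4ebp1 had p = 0.2.

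Per exon length, Eif4a1 over Eif4a2 was 27.5, 24.9 and 22.6 in the controls and 182.3, 199.4 and 310.0 in the others, a 9.01-fold higher mean ratio on the log scale. Eif4a1 over Eif4a3 went from 3.04, 3.05 and 3.01 to 5.13, 5.11 and 5.69. Eif4a1 thus exceeded both relatives more strongly in the knockout-labelled libraries. Eif4g1 over Eif4g2 was 0.242, 0.255 and 0.198 against 0.512, 0.571 and 0.536. Eif4ebp1 over Eif4e was 4.52, 4.61 and 6.04 against 2.66, 3.05 and 3.22. Eif1 over Eif1b moved from 2.82, 3.84 and 3.44 to 1.01, 1.10 and 1.03. The closeness to 1 depends on the annotated exon lengths, 2098 bp for Eif1 and 1125 bp for Eif1b. In raw counts of the knockout-labelled libraries Eif1 had 2294, 2652 and 2421 against 1218, 1291 and 1260 for Eif1b. Eif2s3x over Eif2s3y was 1.67, 1.01 and 1.27 against 0.512, 0.545 and 0.471. Eif4g1 over Eif4g3 and Eif4e2 over Eif4e differed by 0.49 and -0.40 on the log2 scale.

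**Figure D4:**
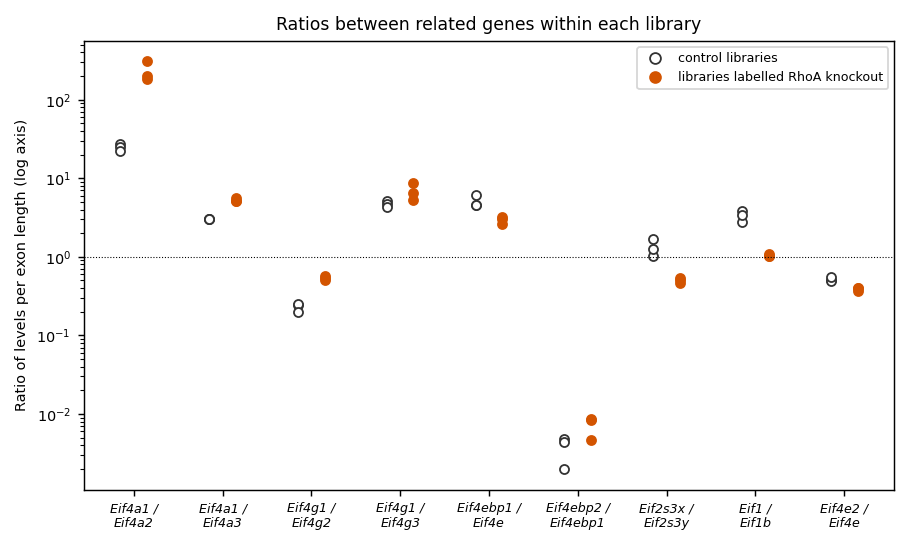
Ratios of member pairs within each library, from CPM per exon length, on a log axis (points are libraries). The Eif4a1 over Eif4a2 points lie between 22.6 and 27.5 in the controls and between 182.3 and 310.0 in the knockout-labelled libraries, and the Eif4ebp2 over Eif4ebp1 points overlap.

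Promoters were compared because members of 1 complex moved together or apart. The RefSeq promoter table (GRCm38.p6, 250 bases before to 50 after the start) holds 42 of the 52 members. The E-box CACGTG, a palindrome bound by Myc and related factors, was present in the window of 9 members (21.4%), against 8.09% of all 27025 genes in the table and 12.2% of the 8812 that were also tested. By call, it was in 5 of 15 genes that rose, 1 of 10 that fell and 3 of 17 not called. For each of the 5 genes that rose, 1 box is shown, with 1 each of Eif3f and Eif4g1, which did not rise. Eif4e, Eif5a and Eif4g1 each have another box that is not printed. Letters are in lower case along the gene's strand with the E-box in capitals.
Eif4a1, chr11:69672587-69672632, minus strand: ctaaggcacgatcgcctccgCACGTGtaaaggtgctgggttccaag
Eif5a, chr11:69921435-69921480, minus strand: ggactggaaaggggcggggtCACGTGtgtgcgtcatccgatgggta
Eif4e, chr3:138527192-138527221, plus strand: ggacacgtccgtCACGTGggcaggagccgg
Eif4h, chr5:134639488-134639517, minus strand: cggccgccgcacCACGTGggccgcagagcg
Eif1b, chr9:120492570-120492599, plus strand: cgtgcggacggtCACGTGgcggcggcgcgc
Eif3f, chr7:108934327-108934372, plus strand: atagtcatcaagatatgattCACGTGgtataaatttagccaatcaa
Eif4g1, chr16:20672653-20672698, plus strand: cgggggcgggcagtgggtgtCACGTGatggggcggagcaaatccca
The CCAAT box, on either strand, was in 33.3% of members against 43.5% of tested genes, and the GC box GGGCGG in 76.2% against 68.6%. TGATGNAA, the core of elements bound by Atf4, was in the window of Eif2s3x alone (2.38% against 2.83%). A match is a description of the letters in the window and not a bound site.

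The genes around the factors were counted in lists that hold no member. Of 14 initiation helpers without an Eif symbol, 6 rose and 3 fell. The called share of 64.3% compares with 43.2% of all genes tested and 69.3% of those at an average log2 CPM of 3 or more. Part of these helpers lies below that level. Paip2, which takes poly(A)-binding protein away from eIF4G, rose by 0.80 ± 0.11 SE on the log2 scale (edgeR adjusted p = 9.83e-05). Denr, a factor for re-initiation and tRNA release, had a log2 fold change of -0.68 ± 0.11 SE (edgeR adjusted p = 0.000259), and Pabpc1, the main poly(A)-binding protein, one of -0.51 ± 0.11 SE (edgeR adjusted p = 0.00282). The Pabpc1 value was -0.25 under the length correction and no longer called.

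Upstream, mTORC1 and its regulators held 18 tested genes, of which 8 rose and 4 fell, with a median log2 fold change of 0.73. The called share of 66.7% compares with 43.2% of all genes tested and 69.3% of those at an average log2 CPM of 3 or more. Part of the list lies below that level, so the latter share is not matched to it. The Ragulator subunits Lamtor5 and Lamtor2 rose by 1.61 ± 0.14 SE and 1.26 ± 0.12 SE (edgeR adjusted p = 2.55e-06 and 4.66e-06), and the GTPase gene Rragc, whose product Ragulator anchors, fell by 1.95 (edgeR adjusted p = 9.12e-06). Named after their values were seen, Deptor, an inhibitor of mTOR, had the highest fold change of the list (2.75 ± 0.33 SE, edgeR adjusted p = 3.08e-05), and both the kinase Mtor and its partner Rptor fell, at -0.75 and -0.91 (edgeR adjusted p = 0.02 and 0.0006). Under the length correction neither of these falls was called (-0.28 and -0.32). The Mtor adjusted p was also 0.0848 without control replicate 2, 0.0553 without knockout replicate 1 and 0.0629 without knockout replicate 3, within 0.0131 to 0.343 over the alternatives. Of 8 tested regulators of eIF4E and eIF4A, 2 fell and 6 did not pass the test (25.0% called, against 43.2% of all genes tested). The 2 that fell were Larp1 by 0.47 and Gigyf2 by 0.64 on the log2 scale (edgeR adjusted p = 0.0108 and 0.0218). Under the length correction both calls were lost, with -0.19 for Larp1 and -0.01 for Gigyf2. The Gigyf2 call was also lost without control replicate 1 (adjusted p 0.089) and without knockout replicate 1 (0.0777), within 0.0159 to 0.964 over the alternatives. Pdcd4, an inhibitor of eIF4A, did not pass the filter on low counts and is named after its values were seen. It had 0 counts in all controls and 55, 7 and 34 counts in the others, at least 25.2-fold higher against a floor of 3 counts over the control group.

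Of 10 genes of the eIF2 alpha phosphatase, kinase cofactors and the Atf4 branch, 2 rose and 4 fell. For comparison, 43.2% of all genes tested were called, and 69.3% of those at an average log2 CPM of 3 or more. Part of this list lies below that level, so the latter share is not matched to it. Trib3, an Atf4 target, rose by 0.92 ± 0.14 SE, and Dnajc3, an inhibitor of the kinases PKR and PERK, by 0.76 ± 0.15 SE (edgeR adjusted p = 0.000192 and 0.00146). Ppp1r15a, the stress-induced phosphatase subunit GADD34, fell by 1.13 (edgeR adjusted p = 0.00166). Atf4 itself and its target Ddit3, named after their values were seen, were also called lower, at -0.42 and -0.94 (edgeR adjusted p = 0.0146 and 0.0242). The Atf4 adjusted p was 0.0538 without knockout replicate 3, within 0.00122 to 0.275 over the alternatives. For Ddit3 it was 0.0582, 0.0568 and 0.0684 without knockout replicate 1, 2 or 3, within 0.000435 to 0.102, and its log2 fold change was -0.53 without control replicate 3. Of 11 elongation and termination genes 3 rose and 3 fell, a called share of 54.5% against the same 2 shares of all genes. Among those called were Eef1d at 0.69 ± 0.12 SE, Eef2 at 0.47 ± 0.12 SE and Gspt1 at -0.84 ± 0.22 SE (edgeR adjusted p = 0.000495, 0.00859 and 0.0075). The Eef2 adjusted p was 0.0601 without control replicate 2, the highest of a range from 0.000108 over the alternatives. Both mitochondrial initiation factors, Mtif2 and Mtif3, were not called, with log2 fold changes of 0.13 and -0.11 (edgeR adjusted p = 0.715 and 0.631).

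Fold change fell with exon length over all genes. The members had a rank correlation of similar size but not the same pattern of calls. The shares of calls below are not matched for level, and the members are more abundant (median average log2 CPM 4.92 against 1.76). Across genes, which are not independent replicates, Spearman's rho between length and log2 fold change was -0.23 over 12919 genes and -0.21 over the 52 members. Of all genes over 5000 bp, 12.4% rose and 32.7% fell, and of the 23 members of that length 26.1% rose and 21.7% fell. The part of this trend in single values was not tested beyond the length correction, under which 21 members rose and 9 fell.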

How the data were processed

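RNA of RAW264.7 cells was measured in 3 control and 3 RhoA knockout libraries. The authors deposited raw counts, 1 whole number for each gene and library. The genome build is GRCm38 in the submitters' processing notes. The aligner and counter, the use of strand and the handling of reads with several matches were not given in the sources used here. All columns were matched to samples by name (0 left out). IDs were matched to GENCODE M21 (55227 of 55487 had a symbol).

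The main test was edgeR 4.0.16 in R 4.3.3 (filterByExpr, TMM, estimateDisp, robust glmQLFit, glmQLFTest) over 12930 genes with Benjamini-Hochberg adjustment at 0.05. SEs derive from the F statistic. The common biological coefficient of variation was 0.323. Floors and intervals cover counting error only. Genes are called uncertain for a matching gene (blastn 2.17.0, 95% identity over at least 200 bp, 10% or more of the count), which holds for 10 members, or for an overlap of the annotated genes, which adds 4 (Eif2a, Eif2d, Eif4a2 and Eif4enif1). Members and lists were chosen with earlier results of these data known. All members are named. A rule picked 43 genes, which are Rhoa, the member of each role most abundant per length with at most 5 called ones of smallest p, and from each other list up to 3 called genes, or its 2 most abundant genes if no call was made. Scripts were tested on simulated data. Alternatives were DESeq2 1.42.0, library totals without TMM, filters, a length correction, leaving out the 10 most abundant genes, the replicate number as a block, and leaving out libraries.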

Additional observations from a re-analysis of the deposited data

How the results depend on the processing

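Of the 30 calls among the initiation factors, 23 held in all 15 alternatives (16 higher, 7 lower), and no called member changed sign. With library totals alone the median of members moved to 0.27 (0.15 over all genes), 24 members were higher and 7 lower, and 59.8% of all calls were higher, against 48.5%. Rising members numbered 17 to 21 and falling ones 9 to 11 when 1 library was left out, with medians of 0.07 to 0.13 and 4845 to 5313 genes called. Numbers of called genes per list were as follows. With library totals, eIF2B had 2, the eIF2 alpha kinases 0 and the eIF4E and eIF4A regulators 0; with the length correction these were 2, 0 and 1. Without replicate 3 of both groups the kinases had 1. Leaving out 1 library gave 1 to 2 for eIF2B, 0 to 1 for the kinases, 1 to 3 for the regulators, 3 to 5 for start codon selection, 3 to 6 for the Atf4 branch, 3 to 5 for elongation and 4 to 7 for the helpers. The sign of Eif4ebp1 turned under the length correction (-0.15) and without knockout replicate 3 (-0.01; up to 0.29 with 1 library left out), and that of Mtif3 with library totals (0.06) and the length correction (0.02); the cause was not tested. Summing Eif3j1 and Eif3j2 moved the log2 ratio from -0.37 for Eif3j1 alone to -0.82. Knockout replicate 1, where Eif3j2 had 0 counts, had a summed level of 2.33 CPM, against 5.63 and 6.11 CPM in knockout replicates 2 and 3. Same-numbered libraries did not deviate together over all genes tested (correlations of -0.006, 0.028 and 0.014). A shared culture or batch that moved few genes could go unseen in these values, so pairing is not excluded. With the replicate block 19 members were higher, 10 lower and 1 kinase was called. DESeq2 gave 19 higher and 11 lower. Of 645 alternative values for the 43 genes that the rule picked, which are not all the genes named, 601 kept their call and direction.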
